A study of Triticum aestivum with 12 samples.

Results

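Transcript levels were compared between roots of Pavon76 wheat seedlings that were watered every second day (water stress) and roots of seedlings that were watered daily (well water). Pavon76 is a bread wheat cultivar. The comparison holds 4 of the 12 arrays of the series, chosen by their titles: 2 water stress arrays and 2 well water arrays. The other 8 arrays hold the same pair of water conditions, with 2 arrays each, for Pavon-TL, a translocation line of Pavon76 as known from outside the labels, and for Null Control, a genotype the labels do not describe further. All seedlings were grown in sand and sampled at 18 days, and every array was hybridised with biotin-labelled total RNA from root tissue. Within each genotype, the water stress array and the well water array with the same replicate number were taken as a pair. Whether the arrays of a group stand for separate plants is not stated in the labels. The p-values therefore measure the spread between these arrays only, and that spread may be technical.

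The water treatment alternates wet and drier sand rather than withholding water altogether, so the comparison is one of watering frequency. In drying soil, plant cells lose turgor and the hormone abscisic acid accumulates. Dehydrins and other late embryogenesis abundant (LEA) proteins, which protect membranes and proteins at low water content, are the classic transcripts that follow. Roots also adjust sugars such as fructans, antioxidant enzymes, wall enzymes, nutrient uptake and the supply of new cells at the root tip, for which histones and tubulins serve as transcript markers. Bread wheat carries 3 related subgenomes, and an array probe set can bind the transcripts of several near-identical copies. This holds most for probe sets whose identifier ends in _x_at, which share probes with other transcripts.

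All values are log2 expression values from RMA, and a difference of 1 on this scale is a 2-fold difference. Differences are given as water stress minus well water, first for each pair and then as their mean, with the standard error (SE) from limma. Unless stated, the SE is from the fit that does not use the pairing. The 4 arrays had medians between 5.89 and 5.93. The spiked hybridization controls, added in equal amounts to each labelled sample, differed by -0.02 in pair 1 and by 0.49 in pair 2, and by 0.25 to 0.76 in the 4 pairs of the other genotypes. The part of this shift in the results was not tested. The difference between the 3′ and the 5′ end of ubiquitin, a sign of RNA integrity, was -0.22 and -0.20 on the well water arrays, and -0.12 and 0.15 on the water stress arrays. For actin it was -1.50 and -2.30 against -2.09 and -2.22, and for ef1a 0.21 and 0.17 against 0.19 and 0.10. For sucrose synthase it was 6.51 and 6.70 against 6.57 and 7.08. Under water stress the difference was thus higher in both pairs for ubiquitin and sucrose synthase, and lower in both for ef1a. For actin the pairs were opposed. The part of RNA integrity in the results was not tested. The tissue label was checked on marker transcripts. The 4 probe sets of the root markers, 3 of the phytosiderophore gene DMAS1 and 1 of the wall enzyme XTH, were at or above the median of all values (5.91) on each of the 4 arrays. Of the leaf photosynthesis markers 6 of 33 probe sets reached it, and of the grain storage markers 3 of 19.

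The first question was which transcripts differed between the watering regimes. No single transcript passed the test, and most of the largest differences were losses of signal. At an adjusted p below 0.05 limma called 0 of 61179 probe sets (0%), and the smallest adjusted p was 1. At an unadjusted limma p below 0.05 there were 1737 probe sets (2.84%), of which 1056 (1.73%) were higher and 681 (1.11%) lower under water stress. This split moved with the scaling of the arrays: it was 838 higher and 797 lower after a further quantile normalization, and 708 higher and 914 lower with each array centred on its median. With the replicate number as a block, limma also called 0 probe sets, with a smallest adjusted p of 0.257, and 4017 probe sets (6.57%) had an unadjusted p below 0.05.

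With the 4 Pavon76 arrays fitted alone and blocked by pair, limma called 130 probe sets (0.212%), 11 higher (0.018%) and 119 lower (0.195%), with a smallest adjusted p of 0.00489. That fit has a single residual degree of freedom per probe set before moderation, and any array left out would leave none. In all 130 the pairs had the same sign, in 87 the mean was at least 2-fold, and in 122 the mean level was at or above the median of all values. In the fit of all 12 arrays with the block, 123 of the 130 had an unadjusted limma p below 0.05, against 6.57% of all probe sets. In the fit without the block 66 had, against 2.84%. These fits take the same Pavon76 difference from the same 4 arrays on which the 130 were chosen. The counts, like the shared signs, are therefore a description and not a second test. Those 130 calls rest on the blocked fit of the 4 arrays alone.

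Both pairs had the same sign in 17430 probe sets on the positive side (28.5%) and in 13616 on the negative side (22.3%), while the signs differed in 30133 (49.3%). The pairs were thus about as often opposed as alike. Across probe sets, which are not independent replicates, the differences of pair 1 and of pair 2 correlated with r = 0.0788, with SDs of 0.26 and 0.25. The correlation was 0.0455, 0.0571, 0.109 and 0.0604 when the probe sets were split into 4 equal groups from the lowest to the highest mean level. The sign of small differences turned with the scaling as well: the positive share of the same-sign probe sets was 56.1% as deposited and 46.0% after centring.

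Large differences went mostly one way. Same-sign differences with a mean of at least 2-fold were found in 16 probe sets that were higher (0.0262%) and 109 that were lower (0.178%) under water stress. Both pairs differed by at least 0.5 in 67 higher (0.11%) and 421 lower probe sets (0.688%). Both pairs reached 2-fold in 1 higher (0.00163%) and 43 lower probe sets (0.0703%). The excess of lower probe sets remained under each scaling, with 14 higher and 102 lower at 2-fold after the further quantile normalization and 13 higher and 119 lower after centring. The arrays of the groups did not overlap in 9739 higher (15.9%) and 6641 lower probe sets (10.9%), so a lack of overlap between 2 and 2 arrays was common here.

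**Figure D1:**
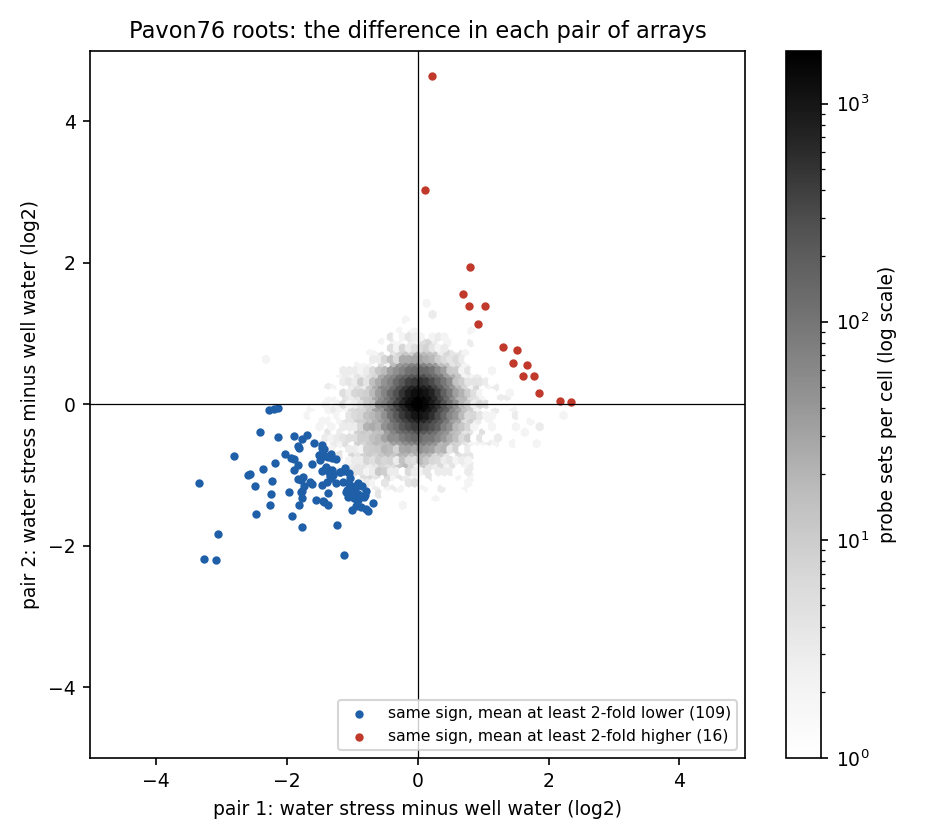
Difference between water stress and well water in pair 1 (x axis) against pair 2 (y axis), both in log2 units, for the 61179 probe sets. Grey cells give the number of probe sets on a log scale, and coloured points mark same-sign probe sets with a mean of at least 2-fold: 109 lower lie in the lower left, many near the diagonal, and 16 higher lie in the upper right, several of them close to an axis.

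The threshold cut through a continuous range. Just inside it, the mean difference was 1.01 on the higher side, from 1.86 in pair 1 and 0.15 in pair 2, and -1.0025 on the lower side, from -1.10 and -0.90. Just outside it, the mean was 0.95 on the higher side, from 0.84 and 1.06, and -0.9997 on the lower side, from -1.44 and -0.55. On the higher side the probe set just outside was thus more alike between the pairs than the one just inside.

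The 2 leading lower probe sets belong to the transcript cluster Ta.8304, which has no gene in the annotation used here. Ta.8304.1.S1_a_at read 9.20 and 8.95 under well water and 5.94 and 6.77 under water stress. The groups did not overlap, and the difference was -3.26 in pair 1 and -2.19 in pair 2, with a mean of -2.72, or 6.60-fold lower (SE 0.91, n = 2 arrays per group, limma adjusted p = 1). Blocked on the 4 arrays alone, its limma adjusted p was 0.00489. Ta.8304.1.S1_x_at, which covers the same transcript, read 9.09 and 9.002 under well water and 6.005 and 6.798 under water stress, with a mean of -2.64. The third probe set of the cluster, Ta.8304.2.A1_at, did not go with them: it differed by 0.88 in pair 1 and -0.03 in pair 2, at a mean level of 5.74. Ta.8304.1.S1_a_at differed in Pavon-TL by -1.66 (pair 1) and 2.06 (pair 2). Its Null Control pairs gave -0.18 and -2.12. The signs of the 2 Pavon-TL pairs were thus opposed for the transcript with the largest Pavon76 difference. Its well water mean was 9.08 in Pavon76, against 6.03 in Pavon-TL and 6.93 in Null Control. Under water stress the means were 6.35, 6.24 and 5.78 in the same order. The Pavon76 well water arrays were thus the high ones. A choice by a Pavon76 loss favours such probe sets, so these levels are a description only.

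The next 8 lower probe sets without a gene had mean differences from -2.44 to -1.75 and mean levels from 5.99 to 8.69. With the 2 above they made 10 probe sets of 6 transcript clusters, so they are not 10 separate transcripts. In 10 of these 10 the groups did not overlap, against 10.9% of all probe sets on the lower side. The blocked fit of the 4 arrays called 7 of the 10, against 0.195% of all as lower. The 10 were chosen by size on these same arrays, so both counts are a description. None of the 10 was called in the fit of 12 arrays with or without the block.

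On the higher side, the same limit on the mean level was used. It left out the largest positive same-sign mean, 2.43 for Ta.28289.1.S1_a_at, from 0.22 in pair 1 and 4.64 in pair 2, at a level of 5.12. Another probe set of that cluster, Ta.28289.2.S1_x_at, with a mean of 1.57 at a level of 4.87, was also left out. Among those kept, Ta.10270.1.A1_at read 5.44 and 5.70 under well water and 6.24 and 7.64 under water stress. Its mean difference was 1.37 (SE 0.40), with no overlap of the groups, and larger in pair 2 (1.94) than in pair 1 (0.80). Ta.18625.1.S1_at read 7.31 and 7.86 under well water and 8.35 and 9.25 under water stress, with a mean difference of 1.21 (SE 0.53). It was the 1 probe set at least 2-fold higher in both pairs, with 1.03 and 1.39. The next 8 had means from 1.03 to 1.19. Among these 10, the groups did not overlap in 7, against 15.9% of all probe sets on the higher side. The blocked fit of 4 arrays called 4, against 0.018% of all as higher. These 10, of 8 transcript clusters, were likewise chosen on the same arrays, so the counts are a description.

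The 109 lower probe sets at 2-fold came from 93 transcript clusters, and 10 clusters contributed several, 26 probe sets together. In the cluster with the most probe sets in the class, 4 of its 5 probe sets were in the class and 5 of 5 were lower in both pairs, with means from -1.75 to -0.08. In another, 4 of 4 probe sets were in the class, with means from -2.44 to -1.43. Clusters could also be divided, as Ta.8304 was. In Ta.5138, 3 of 5 probe sets were 2-fold lower, and the other 2 were higher in both pairs, by up to 0.20.

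The levels and pair differences of the lower class are values the choice was made on, and a probe set near the bottom of the scale can hardly fall 2-fold, so they are given as a description. Its probe sets had a median level of 8.97 with daily watering and 7.59 under water stress, and 99 of the 109 (90.8%) had a mean level at or above the median of all values, against 50.1% of all probe sets. Over the 4 equal groups of probe sets by mean level, they numbered 0, 10, 36 and 63 from lowest to highest. The 16 higher probe sets numbered 0, 4, 9 and 3. Probe sets ending in _x_at made up 20.2% of the lower class and 11.1% of all probe sets, and those with the prefix TaAffx 28.4% and 48.5%. Pair 1 had the larger difference in 79 of the 109 (72.5%), with medians of -1.42 in pair 1 and -1.10 in pair 2. A gene was assigned to 5 of the 109, and to 2.08% of all probe sets.

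Genes were named for 1273 probe sets (2.08%), which belong to 771 genes. Of these, 669 carry a LOC number only and 102 a name. With 1 probe set per gene and a mean level at or above the median of all values, 576 genes remained. Same-sign differences were positive in 137 of them and negative in 149, and 0 genes were 2-fold higher and 2 were 2-fold lower. Those 2 carry LOC numbers only. LOC100037518 read 8.47 and 9.47 under well water and 7.598 and 8.02 under water stress, a mean difference of -1.16 (SE 0.47) with no overlap. LOC100037599 read 10.91 and 10.54 under well water and 9.87 and 9.57 under water stress, a mean of -1.01 (SE 0.51), and its other probe set differed by -0.79. Both were called in the blocked fit of the 4 arrays (limma adjusted p = 0.0323 for the first) and in no fit of 12 arrays. LOC543472 had the largest positive mean of the genes at this level, 0.81, from 0.88 in pair 1 and 0.74 in pair 2. Its other probe set differed by 0.20.

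The blocked fit of the 4 arrays called 3 further probe sets with a gene, all lower, which are named here after their values were seen. LOC606366 differed by -0.91 and -1.26 in the pairs, LOC543097 by -0.89 and -0.92, and LOC543438 by -1.31 and -0.76. In all 3 the arrays of the groups overlapped, because the replicates stood further apart than the watering regimes. LOC606366 illustrates this, with 6.43 and 7.90 under well water and 5.52 and 6.64 under water stress.

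Among the 60 named genes at or above the median level, 18 were positive and 16 negative in both pairs. The stress-protective transcripts did not move as a block. Of 10 dehydrin and LEA probe sets (5 genes), 6 were higher and 4 lower under water stress, 4 and 3 of them in both pairs, with a median difference of 0.04 against 0.01 over all probe sets. None of the 10 was called. Rab15, a dehydrin, had a positive difference of nearly the same size in both pairs. Its values were 8.28 and 8.47 under well water and 8.78 and 9.02 under water stress. Both stress arrays lay above both well water arrays, and the difference was 0.50 in pair 1, 0.55 in pair 2 and 0.52 in the mean, or 1.44-fold higher (SE 0.22, limma adjusted p = 1, unadjusted below 0.05). The other Rab15 probe sets differed by 0.33 and, at a lower level, by -0.38, each with the same sign in both pairs.

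PMA2005, another LEA gene, stood on the opposite side. It read 6.12 and 5.47 under well water and 5.17 and 4.83 under water stress, without overlap, a mean difference of -0.79 (SE 0.41). Its level was near the median of all values, and its probe set ends in _x_at. The 3 probe sets of Em, an LEA gene of the embryo, had means of 0.04, 0.37 and 0.39. The brightest, at 7.05 and 7.06 against 6.95 and 7.24, had pairs of opposite sign. EM, a related entry in the annotation, differed by -0.02 in one probe set and by -0.14 in another at a level under 3, and COR410, a cold-induced dehydrin, by 0.03 with opposed pairs.

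**Figure D2:**
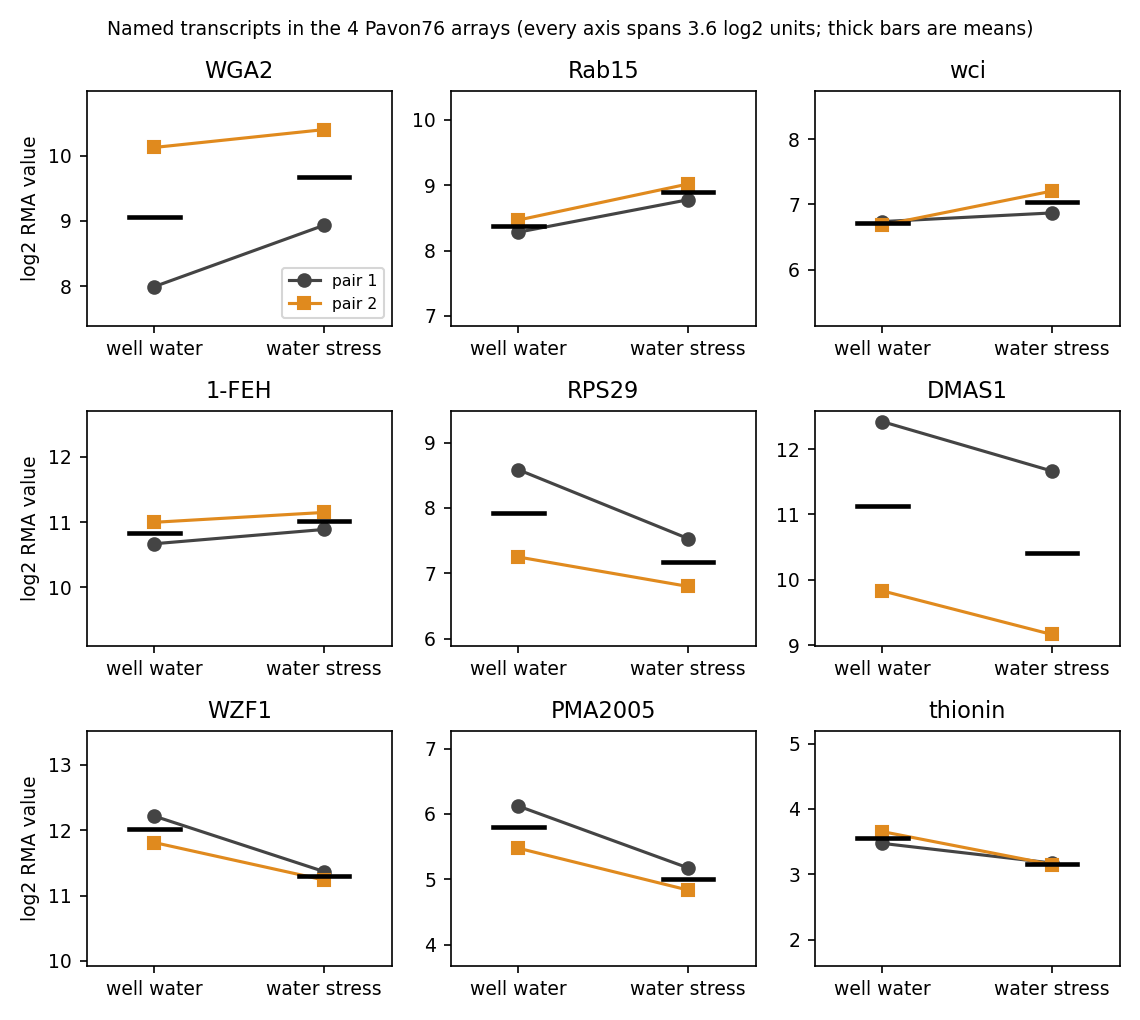
Log2 RMA values (y axis, the same span in each panel) of 9 named genes on the 4 Pavon76 arrays, with lines joining the well water and water stress arrays of pair 1 (grey circles) and pair 2 (orange squares) and thick bars for group means. Rab15, wci, WZF1, PMA2005 and thionin separate the watering regimes, while for WGA2, 1-FEH, RPS29 and DMAS1 the pairs stand further apart than the regimes do.

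Of the other named transcripts with a positive difference, WGA2, which encodes the chitin-binding lectin wheat germ agglutinin, had the largest mean at 0.61 (SE 1.21). Its values of 7.99 and 10.12 under well water and 8.93 and 10.40 under water stress differed more between the replicates than between the regimes. With the block its SE was 0.24 and its limma adjusted p 0.707. ALMT1-1, the malate transporter of root tips known for aluminium tolerance, differed by 0.17, with values of 7.73 and 8.50 against 7.83 and 8.74. TaTPC1, a calcium channel, and AGP-S, the small subunit of ADP-glucose pyrophosphorylase in starch synthesis, differed by 0.11 and 0.12. The protein-folding isomerase FKBP70 differed by 0.12. Glc1 differed by 0.19, and its other probe set by -0.19, each with the same sign in both pairs. Without the block, the SEs of the 5 positive differences from ALMT1-1 to Glc1 ran from 0.14 to 0.81, and none of the 5 was larger than its SE. With the replicate number as a block the SEs ran from 0.10 to 0.21. The differences of ALMT1-1, TaTPC1 and AGP-S were then slightly larger than their SEs, and those of FKBP70 and Glc1 were not.

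The negative side held larger single values. RPS29, a protein of the small ribosomal subunit, read 8.58 and 7.25 under well water and 7.53 and 6.799 under water stress. Its mean difference was -0.75 (SE 0.86) with overlapping groups, and with the block the SE was 0.34 and the limma adjusted p 0.765. Its other probe set differed by -0.00, so the gene's probe sets did not move together. All 6 ribosomal and translation probe sets were negative, 4 of them in both pairs, and their median was -0.11. Beside RPS29 the differences were small: -0.18 for eIF-2-beta, -0.16 for RPL9, -0.06 for Eif4B and -0.05 for eIF4E. None of the 6 was called.

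DMAS1 encodes deoxymugineic acid synthase, which completes the phytosiderophores that grass roots release to take up iron. It read 12.42 and 9.83 under well water and 11.66 and 9.16 under water stress. The difference was -0.76 in pair 1 and -0.67 in pair 2, and 3 of its 3 probe sets were lower in both pairs, with means from -0.71 to -0.53. Replicate 1 exceeded replicate 2 by far more than well water exceeded water stress, and the SE without the block was 1.42. With the block the SE was 0.41 and the limma adjusted p 0.826.

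WZF1, a zinc finger protein, separated the watering regimes at a high level. It read 12.22 and 11.81 under well water and 11.37 and 11.24 under water stress, a mean difference of -0.71 (SE 0.51). With the block its limma adjusted p was 0.67. Hmgb3, a high mobility group protein that binds DNA, differed by -0.11 with opposed pairs, and 3 of 3 transcription factor probe sets were negative, 1 of them in both pairs.

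Mean differences of the wall, metal and membrane genes were small, but single pairs of COMT1 and XTH differed by more than 0.5. COMT1, a methyltransferase of lignin synthesis, read 13.91 and 12.92 against 13.39 and 12.91, a difference of -0.52 in pair 1 and -0.01 in pair 2. XTH, a xyloglucan-modifying wall enzyme, differed by 0.69 in pair 1 and by -0.69 in pair 2. The plasma membrane proton pump H+-ATPase read 12.92 and 12.89 against 12.69 and 12.68, a small and even difference of -0.22 (SE 0.12) without overlap. Across its 3 probe sets the means ran from -0.22 to 0.02. PCS1, which makes the metal-binding phytochelatins, differed by -0.23. APRT, an enzyme of adenine salvage, differed by -0.17, la-17 by -0.15 and avnlb, an avenin-like storage protein, by -0.11.

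Fructan and sucrose enzymes were negative in 4 of 5 probe sets, 3 of them in both pairs, and positive in 1, with a median of -0.14 and 0 called. The fructan exohydrolases, which break fructan chains down, stood on opposite sides. 1-FEH read 10.67 and 10.997 under well water and 10.89 and 11.15 under water stress, a mean difference of 0.18 (SE 0.16). 6-FEH read 6.36 and 6.24 against 6.05 and 6.18, a mean of -0.18 (SE 0.11), without overlap. The invertase IVR1, which splits sucrose, differed by -0.23 at a level below 4.1.

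Antioxidant and detoxification enzymes were lower in 9 of 14 probe sets, 7 of them in both pairs, and higher in 5, 2 of them in both pairs, with a median of -0.04 and 0 called. Catalase CAT1, which breaks down hydrogen peroxide, read 5.87 and 5.90 under well water and 5.76 and 5.43 under water stress. Its difference was -0.28 (SE 0.12, with an unadjusted limma p below 0.05), and its other probe set differed by -0.05. The peroxiredoxin PER1 differed by -0.05, and by 0.15 in its other probe set, and the thioredoxin Trx-M by -0.06. The peroxidase Prx1 differed by -0.00 in the probe set with the highest level and by -0.29 to 0.10 across its 4 probe sets. GSTZ1, a glutathione transferase, differed by 0.13 in pair 1 and by -0.32 in pair 2. The methyl cycle genes PEAMT1, which methylates phosphoethanolamine on the way to choline, and SAHH, which removes the by-product of methylation, differed by -0.03 and 0.00.

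Defence transcripts went both ways. Of 7 probe sets 3 were higher and 4 lower, 1 and 3 of them in both pairs, with a median of -0.13 and 0 called. The gene wci, named as a wheat transcript induced by chemical activators of resistance, read 6.74 and 6.68 under well water and 6.87 and 7.20 under water stress, a mean of 0.33 (SE 0.12, with an unadjusted limma p below 0.05). The antimicrobial peptide gene thionin read 3.47 and 3.65 against 3.17 and 3.15, a mean of -0.40 (SE 0.10, with an unadjusted limma p below 0.05), at a level among the lowest on the arrays. PR5, a thaumatin-like protein, differed by -0.32 at a level near 5. The thionins THI1.1 and THI1.2 differed by 0.00 and 0.04. Of 4 inhibitor probe sets, 1 had a positive sign in both pairs, the serpin Serpin-Z2B with 0.09. Serpin-Z1C differed by 0.10 and the amylase inhibitor WMAI-1 by -0.13, both with opposed pairs. The small heat shock protein hsp16.9A differed by -0.25 at a level below 4.

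Histones were measured by 18 probe sets of 5 genes, 7 of them for wcH2B-8 and 6 for wcH2A-9. They were higher in 16 of the 18 probe sets, 10 of these in both pairs, and 1 was lower in both pairs. Their median difference of 0.11 compares with 0.01 over all probe sets, and 0 of 18 was called. After centring, 15 were higher, 7 of them in both pairs, 2 were lower in both pairs and the median was 0.08. The shift came from pair 2, with a median of 0.23 against 0.01 in pair 1, and pair 2 was also the pair with the higher hybridization controls under water stress. That control's part in the result was not tested. For wcH2B-8, a histone H2B gene with 7 probe sets, the means ran from 0.10 to 0.26, with 5 of 7 positive in both pairs. The probe set named by rule read 12.17 and 12.01 against 12.21 and 12.27, a mean of 0.15 (SE 0.16). wcH2B-6 differed by 0.07, and the H2A genes wcH2A-3, wcH2A-9 and wcH2A-2 by 0.11, 0.01 and -0.13. The other wcH2A-3 probe set differed by -0.18, negative in both pairs.

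Tubulin probe sets were divided, 6 higher and 4 lower with a median of 0.03, and tubb1, tubb2 and Tubb4, beta-tubulins at levels above 12, differed by 0.03, 0.02 and -0.08. The alpha-tubulin TUBA differed by -0.48 in a probe set at 6.67 and 4.98 against 6.02 and 4.67, and by -0.00 in another with values near 13.9.

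**Figure D3:**
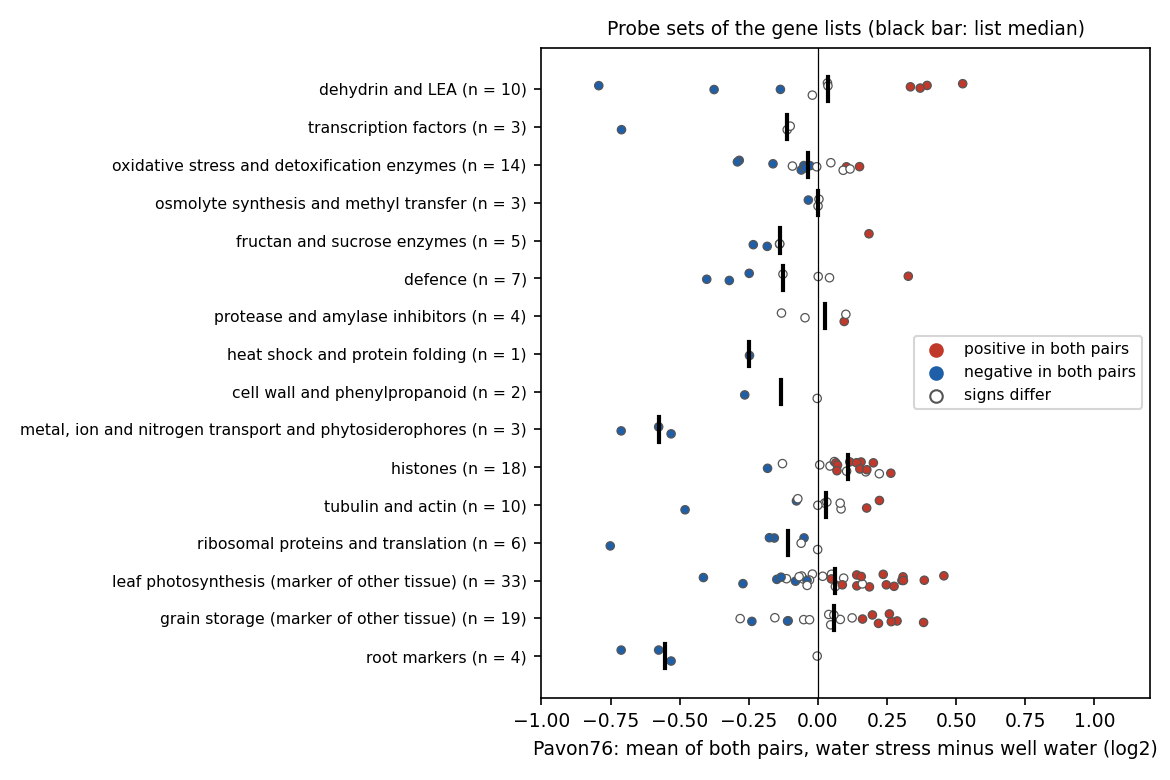
Mean difference of both pairs (x axis, log2) for each probe set of the gene lists, 1 list per line, with the number of probe sets beside its name and a black bar at the list's median. Most medians lie within 0.15 of 0, histones are mostly right of 0, and the DMAS1 probe sets lie near -0.6.

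Most transcripts of other tissues were low, and they were divided. The brightest probe set read 11.56 to 12.32 on the 4 arrays among the leaf photosynthesis markers, and 11.16 to 11.66 among the grain storage markers (avnlb), well above the third quartile of all values (7.98). Of 33 leaf photosynthesis probe sets, 20 were higher and 13 lower, with a median of 0.06, and 28 of them measure the Rubisco large subunit gene rbcl, with means from -0.41 to 0.46. The log2 of their summed signal was 12.77 and 13.34 on the well water arrays, against 13.16 and 13.44 under water stress, and 0 of 33 was called. The photosystem protein PsbP differed by -0.27, PsbO by -0.03 with opposed pairs, and petC, of the cytochrome complex, by 0.07. Of 19 grain storage probe sets, 12 were higher and 7 lower, with a median of 0.06 and 0 called, and the log2 of their summed signal was 11.46 and 11.87 against 11.47 and 11.72. In this list Gli-8, a gliadin, differed by 0.29, the glutenin Glu-D3 by 0.26 (by -0.05 and 0.08 in its brighter probe sets), GAG56D by 0.22, the beta-amylase BMY1 by 0.38 and the granule-bound starch synthase GBSS-I by 0.16. In whole roots, fewer cells of a type and less RNA per cell cannot be told apart. Over the 138 listed probe sets, 73 were higher and 65 lower, with a median of 0.01, the same as over all 61179, and 0 was called in the fit of 12 arrays, in that fit with the block or in the blocked fit of 4 arrays.

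The second question was whether the Pavon76 difference was also seen in the other genotypes, whose well water and water stress arrays are their own. limma called 0 probe sets (0%) for the Pavon76 response minus the mean response of Pavon-TL and Null Control, and 1707 (2.79%) had an unadjusted p below 0.05. With the block it called 0, and 3850 (6.29%) had an unadjusted p below 0.05. So no probe set passed the test of a difference between the genotypes' responses.

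The counts of large differences were arranged differently by genotype. At 2-fold with the same sign, Pavon76 had 16 higher and 109 lower, Pavon-TL 21 higher and 9 lower, and Null Control 74 higher and 29 lower. With both pairs at 0.5 or more, the higher and lower counts were 67 and 421 in Pavon76, 88 and 36 in Pavon-TL, and for Null Control 288 and 109. Lower probe sets outnumbered higher ones in Pavon76 and the reverse held in both other genotypes. These counts have no test of their own. Both pairs shared a sign for 50.7% of probe sets in Pavon76, and for 54.6% and 54.7% in Pavon-TL and Null Control, and the pairs correlated across probe sets with r = 0.0788, 0.0823 and 0.181.

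**Figure D4:**
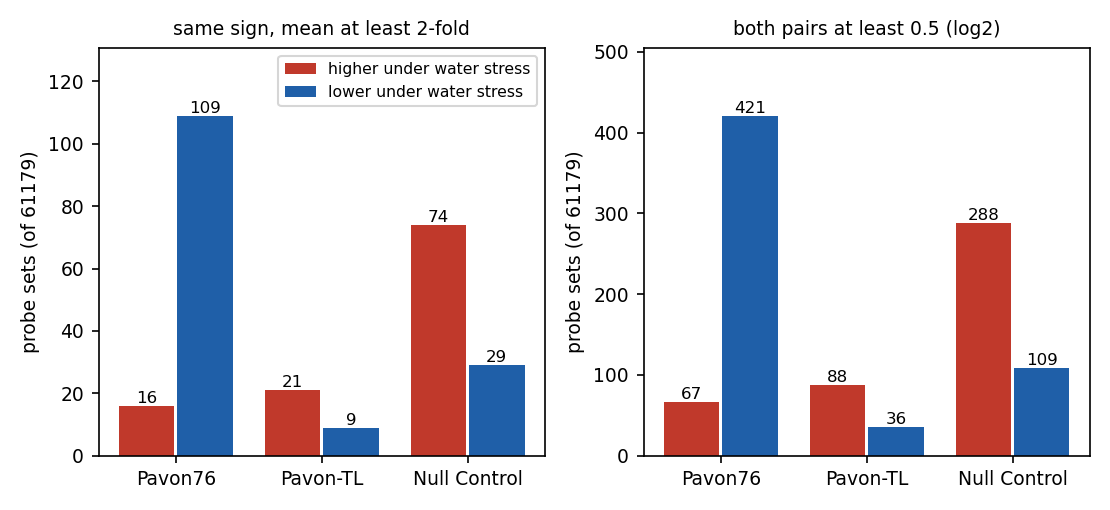
Number of probe sets (y axis, of 61179) that were higher (red) or lower (blue) under water stress in each genotype, for a same-sign mean of at least 2-fold (left) and for both pairs at 0.5 log2 units or more (right). Pavon76 has 109 and 421 lower against 16 and 67 higher, whereas higher counts exceed lower counts in the other genotypes.

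The 109 lower probe sets were chosen on Pavon76, and the other genotypes' values come from arrays that the choice did not use. In Null Control, 60 of them (55.0%) were lower in both pairs, against 28.6% of all probe sets, and 9 (8.26%) were higher in both, with a median difference of -0.32. In Pavon-TL, 7 (6.42%) were lower in both pairs, against 28.9% of all, and 36 (33.0%) were higher in both, against 25.7%, with a median of 0.14. The medians of the Pavon-TL pairs were -0.04 and 0.16, and those of the Null Control pairs -0.22 and -0.33. The difference between these 2 genotypes was not tested. On the arrays, the median of the 109 was 8.95 and 8.79 in Pavon76 under well water and 7.46 and 7.61 under water stress. In Pavon-TL it was 8.54 and 8.16 against 8.41 and 8.30. For Null Control it was 8.29 and 7.59 against 7.98 and 6.995. The choice by a Pavon76 loss favours probe sets that read high on the Pavon76 well water arrays, so the order of the well water levels is a description only.

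Of the 16 higher probe sets, 11 (68.8%) were higher in both Pavon-TL pairs and 10 (62.5%) in both Null Control pairs, against 25.7% and 26.1% of all probe sets. In both pairs lower were 1 in Pavon-TL and 0 in Null Control. Their median differences were 0.41 in Pavon-TL and 0.41 in Null Control. The 16 came from 13 transcript clusters, and 3 clusters contributed 6 probe sets together, so they are not 16 separate transcripts.

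**Figure D5:**
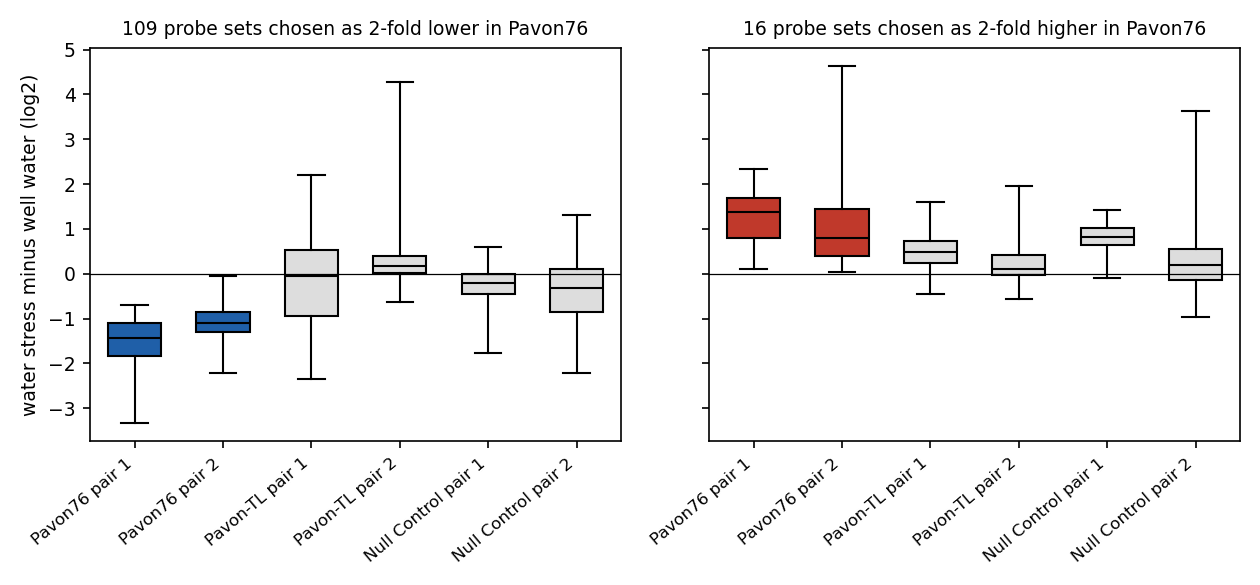
Water stress minus well water (y axis, log2) in each pair of each genotype, for the 109 probe sets chosen as 2-fold lower in Pavon76 (left) and the 16 chosen as 2-fold higher (right). Boxes give quartiles and median and whiskers the full range, with Pavon76, on which the probe sets were chosen, in colour: the medians of the lower class were -1.42 and -1.10 there, -0.04 and 0.16 in the Pavon-TL pairs, and -0.22 and -0.33 in the Null Control pairs.

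Named genes differed in how they behaved across genotypes. Rab15, with 0.52 in Pavon76, had means of 0.05 in Pavon-TL, from 0.28 and -0.18 in the pairs, and 0.09 in Null Control, from 0.31 and -0.12. The contrast of the Pavon76 difference with the mean of the others was 0.45 (SE 0.27). PMA2005, with -0.79 in Pavon76, differed by 0.29 in Pavon-TL, from 0.61 and -0.03, and by 0.52 in the Null Control pairs. Its contrast was -1.20 (SE 0.51, limma adjusted p = 1). WZF1 differed by 0.24 in Pavon-TL and by -0.22 in Null Control, from 0.12 and -0.55, a contrast of -0.72 (SE 0.63). RPS29 differed by 0.36 in Pavon-TL, from 0.85 and -0.13, and by 0.38 in Null Control, a contrast of -1.12 (SE 1.05). The histone gene wcH2B-8, with 0.15, differed by -0.17 in the Pavon-TL pairs and by -0.36 in the Null Control pairs, a contrast of 0.41 (SE 0.20). DMAS1 differed by -0.47 in Pavon-TL, from -1.43 and 0.49, and by -0.06 in Null Control, from -0.40 and 0.28. Against -0.71 in Pavon76 this gave a contrast of -0.45 (SE 1.74). These contrast SEs are from the fit without the block. With the block they were 0.17 for Rab15, 0.42 for PMA2005, 0.30 for WZF1 and 0.42 for RPS29. For wcH2B-8 and DMAS1 they were 0.18 and 0.51. The limma adjusted p of these blocked contrasts ran from 0.746 for PMA2005 to 0.899 for DMAS1. PR5 was negative in the mean of each of the 3 genotypes, at -0.32 in Pavon76, -0.35 in the Pavon-TL pairs and -0.28 in those of Null Control.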

How the data were processed

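Root RNA of 12 wheat samples was hybridised to Affymetrix wheat arrays, 1 array per sample. The deposited values are log2 values that the authors computed with RMA, per the submitters' processing notes, where no version is given; RMA includes a normalization between arrays, so a shift of all transcripts together would not be seen. The table held 61290 probe sets, of which 111 control probe sets (AFFX) were left out. Low values were kept, without detection calls. Precision is limited by the number of arrays.

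The means of 6 groups were estimated with limma 3.58.1 (R 4.3.3) and empirical Bayes moderation. Contrasts were water stress minus well water in Pavon76, and that difference minus the mean of the other genotypes' differences. Two-sided p-values were adjusted by Benjamini-Hochberg over 61179 probe sets, at a threshold of 0.05. The script was tested on simulated data. Alternatives were the replicate number as a block, the 4 Pavon76 arrays alone with and without it, a further quantile normalization, centring, an intensity trend, a filter on dim probe sets, and each array left out. Deviations from group means correlated between 0.606 and 0.795 in 15 of 15 pairs of groups, so the replicate numbers were taken as pairs. What a number marks is not stated.

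Probe sets were named from the 2007 platform annotation (770 of 771 genes matched the RefSeq gene table), and no genome coordinates are given because the annotation names no build. For genes with several probe sets, the one with the highest mean over 12 arrays that does not end in _x_at was used. Named genes were the 12 largest positive and 12 largest negative same-sign means at or above the median level. Added were up to 4 same-sign members and 2 highest members of each list, and the probe sets beside the 2-fold limit. Of probe sets without a gene, the leading 10 same-sign means on each side at or above the median level were taken. The 18 lists were patterns on symbols, 2 of which (abscisic acid signalling and water channels) had no member. The members and the lists were chosen with earlier results of these data known.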

Additional observations from a re-analysis of the deposited data

Results flagged for a closer look

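For 18 named genes, both Pavon76 pairs moved one way and both pairs of another genotype the opposite way. The difference from that single genotype was not tested, and the contrast with the mean of both other genotypes passed the adjusted limma threshold for 0 of them. Many small differences meet this condition with 2 pairs per genotype. Of all probe sets positive in both Pavon76 pairs, 26.9% were negative in both Pavon-TL pairs and 26.1% in both Null Control pairs. Of those negative in both Pavon76 pairs, 23.8% were positive in both Pavon-TL pairs and 23.1% in both Null Control pairs. The 18 genes are therefore listed as a description.

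Against Null Control, PMA2005 was -0.79 in Pavon76 and 0.52 in Null Control, and RPS29 was -0.75 and 0.38. BMY1 was 0.38 in Pavon76 and -0.29 in Null Control, PsbP -0.27 and 0.18, H+-ATPase -0.22 and 0.12, and GBSS-I 0.16 and -0.15. EM was -0.14 and 0.05, AGP-S 0.12 and -0.04, TaTPC1 0.11 and -0.18, and avnlb -0.11 and 0.13.

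Against Pavon-TL, WZF1 was -0.71 in Pavon76 and 0.24 in Pavon-TL, Glu-D3 0.26 and -0.10, and PCS1 -0.23 and 0.25. wcH2B-6 was 0.071 and -0.13, petC 0.066 and -0.38, Trx-M -0.060 and 0.15, and eIF4E -0.050 and 0.08. wcH2B-8 opposed both genotypes, at 0.15 in Pavon76 against -0.17 (Pavon-TL) and -0.36 (Null Control).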

How the results depend on the processing

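No probe set passed the adjusted threshold in the fits of 12 arrays, with any 1 array left out (0 called for the response and 0 for the contrast between genotypes), with the block, after either scaling, with the trend or with the filter. The exceptions were the 130 of the blocked fit of 4 arrays and 2 in each contrast with the block and without Pavon76 water stress replicate 1, an alternative added once the data had been seen. The block on replicate number changed no other call. Counts at an unadjusted limma p below 0.05 moved from 1737 to 4017 with the block, 509 with the filter on dim probe sets, 1093 with 4 arrays and 3743 with 4 arrays and the block. They ran from 1362 to 5103 with 1 array left out, with and without the block. The filter left 7740 positive and 7406 negative same-sign probe sets, and 42 higher by 0.5 in both pairs, as it removes probe sets. At 2-fold, pair 1 alone gave 130 higher and 294 lower, and pair 2 alone 51 higher and 186 lower.

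Of 63 named differences over 23 settings, 29 never changed sign and 34 did, nearly always (83 of 91 times) when 1 array was left out, which breaks a pair, and 0 passed the threshold. After quantile normalization PEAMT1 was 0.0086, SAHH -0.0524, THI1.1 -0.0238 and XTH 0.0085. After centring SAHH was -0.0253, THI1.1 -0.0247, wcH2A-9 -0.0192 and tubb2 -0.0014. The cause was not tested. With 1 array left out, differences ran as follows, over the fits with and without the block together. ALMT1-1, APRT, COMT1, DMAS1, FKBP70, TUBA and WGA2 changed sign only in fits without the block. The ranges were ALMT1-1 -0.28 to 0.62, APRT -0.39 to 0.045, COMT1 -0.76 to 0.23, COR410 -0.078 to 0.15, DMAS1 -2.01 to 0.58, Eif4B -0.28 to 0.15 and Em -0.16 to 0.24. Next came FKBP70 -0.56 to 0.79, GBSS-I -0.033 to 0.36, GSTZ1 -0.35 to 0.17, Glc1 -0.041 to 0.42, Hmgb3 -0.37 to 0.14, PEAMT1 -0.17 to 0.10 and PER1 -0.18 to 0.082. Further ranges were Prx1 -0.19 to 0.18, PsbO -0.45 to 0.38, SAHH -0.11 to 0.11, Serpin-Z1C -0.044 to 0.25, THI1.1 -0.14 to 0.14, THI1.2 -0.065 to 0.15 and TUBA -1.33 to 0.37. Others were Trx-M -0.18 to 0.056, WGA2 -0.46 to 1.67, WMAI-1 -0.29 to 0.022, XTH -0.51 to 0.51, avnlb -0.35 to 0.14, eIF4E -0.11 to 0.010 and petC -0.43 to 0.56. The last were rbcl -0.080 to 0.21, tubb1 -0.073 to 0.14, tubb2 -0.036 to 0.084, wcH2A-2 -0.30 to 0.047, wcH2A-9 -0.099 to 0.11 and wcH2B-6 -0.13 to 0.27.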
